A study of Xenopus tropicalis with 16 samples.

Results

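Nuclear receptors were examined at the transcript level in the livers of female Xenopus tropicalis, the tropical clawed frog, that had been exposed to benzo[a]pyrene, to triclosan or to a mixture, or had not been exposed. The set was chosen by gene symbol: rows whose symbol has the form of the NR0 to NR6 nomenclature with a subfamily letter from a to h, or is that of a retinoic acid, retinoid X, ROR, PPAR alpha or delta, oestrogen-related, vitamin D, androgen, progesterone, second oestrogen or HNF4 beta or gamma receptor. The rule left out nr1d1, nr1d2 and NR1H4, and its pattern does not take in nr1i2, NR1I3, esr1, hnf4a, pparg or the thyroid hormone receptors. It matched 42 of the 19921 gene rows, under 41 symbols, because one row is written NR4A2 and another nr4a2. Of the 42 rows, 41 are receptors and 1, nr2c2ap, is named for a protein that associates with the receptor nr2c2. Of 40 receptor symbols looked for under this rule, nr1h3 (liver X receptor alpha) and nr4a3 were matched by no row and are not analysed here.

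Nuclear receptors are transcription factors that bind DNA at response elements, and many of them are switched by a small lipophilic ligand such as a steroid, a retinoid, a fatty acid, an oxysterol or a bile acid. Retinoid X receptors are the shared partner with which lipid, bile acid, retinoid and vitamin D receptors form heterodimers, whereas steroid receptors act mainly as homodimers that are held by chaperones until hormone binds. In liver these receptors govern bile acid, cholesterol, lipid, glucose and drug metabolism, and many environmental chemicals are studied for their ability to bind them.

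Each exposure group held 4 libraries: 4 from benzo[a]pyrene livers, 4 from triclosan livers, 4 from mixture livers and 4 from unexposed livers. Combustion forms benzo[a]pyrene, a polycyclic aromatic compound, and triclosan is a chlorinated antibacterial agent. The series title places the work in chronic exposure to endocrine disruptors; no label states the dose, duration, vehicle, animal age, number of animals per library or what the mixture contained. The labels call the libraries biological replicates of total liver RNA, and in bulk liver fewer cells of a type and less RNA per cell cannot be told apart.

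Levels are given as FPKM, fragments per kilobase of transcript scaled to the depth of the library, after dividing each library by a factor that brings the libraries to a common scale. The deposited confidence limits imply between about 10900000 and 17900000 fragments per library, and between 12285 and 13380 genes were above 0. The 17 hepatocyte marker rows had a summed level of 8843 to 24105 FPKM per library and none was at 0 throughout, whereas 10 ovary marker rows summed to 0.394 to 1.36 FPKM and zp2, zp3, gdf9 and dazl were listed at 0 in all 16. Ribosomal RNA rows took 10.6% of the summed FPKM in mixture replicate 4 and 3.45% in benzo[a]pyrene replicate 4. The highest value of 15 of the 36 receptor-set rows above 0 lay in 1 of these 2 libraries (9 in mixture replicate 4, 6 in benzo[a]pyrene replicate 4). Division by the 2 lowest scale factors, 0.584 for mixture replicate 4 and 0.800 for benzo[a]pyrene replicate 4, raised their FPKM most. Highest values were not counted over all genes, so the count of 15 has no background. The part of ribosomal RNA or of scaling in it was not tested.

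The receptor transcripts were mostly scarce. By mean over the 16 libraries, 2 rows were at 10 FPKM or more, 8 lay between 1 and 10, 16 between 0.1 and 1, 10 above 0 and below 0.1, and 6 were listed at 0 in every library. The 6 rows at 0 were nr5a1 (steroidogenic factor 1), esrrb and esrrg (oestrogen-related receptors beta and gamma), RORB and rorc (ROR beta and gamma) and the row written nr4a2. A further 5 rows were above 0 in only 1 to 3 libraries, and 23 were above 0 in all 16. Reaching at least 1 FPKM in at least 4 libraries, the filter for testing, left 11 of the 42 rows (26.2%), against 34.7% of all rows. All 42 loci stood clear of other annotated rows in the deposited coordinates, and the shortest locus, that of ppara, spanned 2146 bp.

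**Figure D1:**
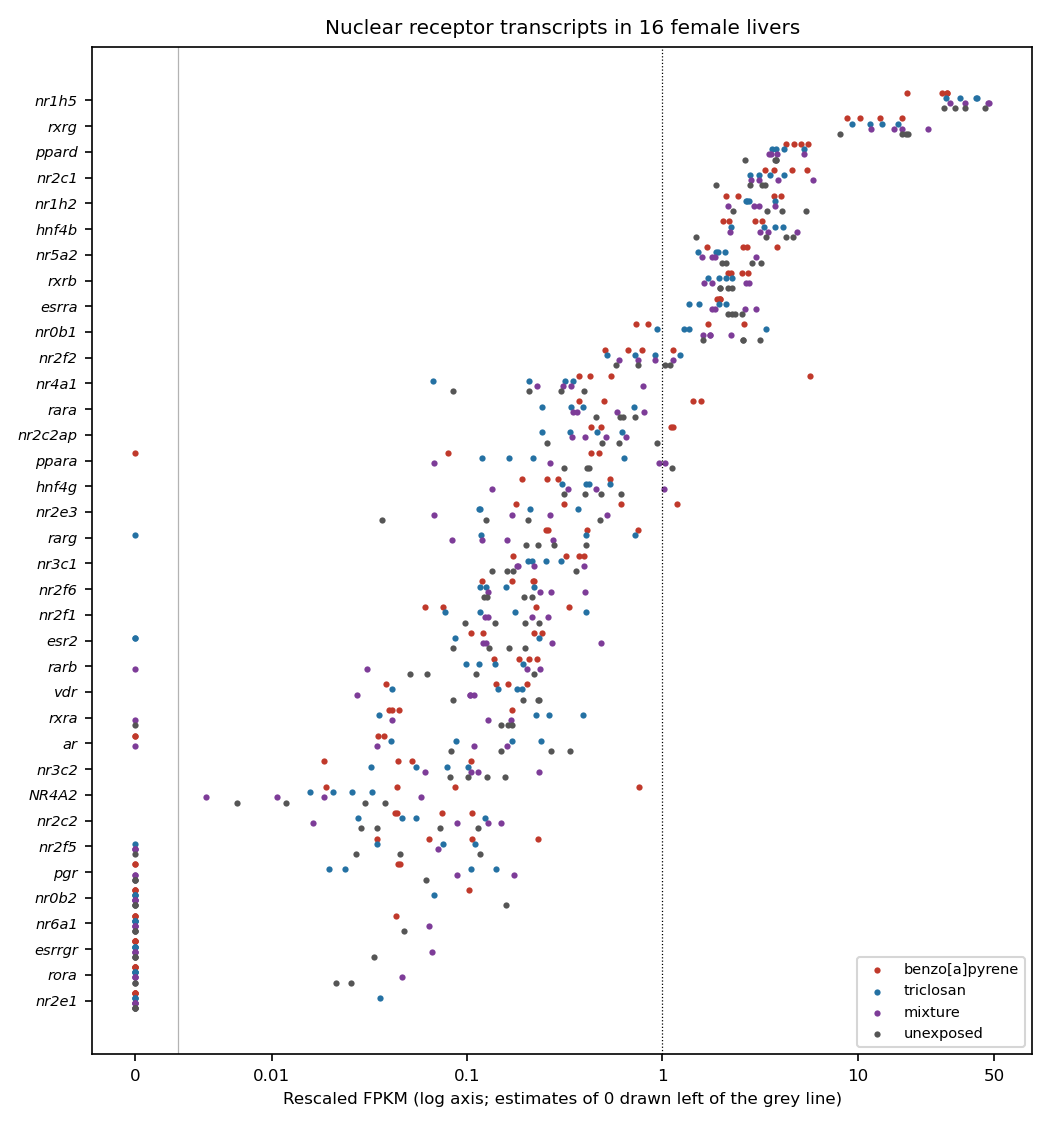
Rescaled FPKM (log axis) of the 36 receptor-set rows above 0 in at least 1 library, ordered by mean over 16 libraries; each point is 1 library, coloured by group, and estimates of 0 are drawn left of the grey line. The points of nr1h5 and rxrg stand to the right of all other rows, 11 rows have at least 4 points at or beyond the dotted line at 1 FPKM, and single benzo[a]pyrene points stand apart for nr4a1 and NR4A2.

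Receptors outside the rule were not ranked. Within the set, the most abundant transcript was nr1h5 (ENSXETG00000021443, scaffold GL172805.1, 54451 to 71713 in the deposited coordinates). This gene encodes farnesoid X receptor beta, which is a pseudogene in humans and a lanosterol sensor in mice. It had 28.6, 17.9, 28.8 and 27.0 FPKM in benzo[a]pyrene livers, 41.0, 40.3, 28.2 and 33.5 FPKM in triclosan livers, 35.3, 46.8, 29.7 and 47.3 FPKM in mixture livers and 45.1, 35.4, 31.6 and 27.8 FPKM in unexposed livers. It was first in the set in 16 of 16 libraries. The 4 benzo[a]pyrene values were among the 6 lowest of the 16, overlapping the unexposed range at its lower end. The mean of nr1h5, 34.0 FPKM over 16 libraries, was higher than that of 95.5% of all genes above 0. Its share of the summed FPKM of all 42 rows, nr2c2ap included, was 36.9 ± 5.24% in benzo[a]pyrene livers and 47.8 ± 3.44% in triclosan livers. That share was 46.6 ± 4.96% in mixture livers and 44.2 ± 4.78% in unexposed livers (SD, n = 4 each). NR1H4, the row for farnesoid X receptor itself, lies outside the rule, and nr1h5 stood at 2.58 ± 0.62 times its FPKM (SD, n = 16 libraries), with a ratio above 1 in every library.

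Among the retinoid X receptors, the common heterodimer partners, rxrg carried most of the transcript. It had 8.84, 10.3, 16.9 and 13.1 FPKM in benzo[a]pyrene livers, 16.2, 13.3, 9.36 and 11.6 FPKM in triclosan livers, 15.4, 11.8, 16.8 and 23.0 FPKM in mixture livers and 18.2, 17.6, 8.11 and 16.9 FPKM in unexposed livers. The groups overlapped widely, with 1 low library among the unexposed and 1 high library in the mixture group. As a share of the FPKM of the 3 RXR rows, rxrg made up 82.4 ± 3.86% in benzo[a]pyrene livers, 84.4 ± 3.68% in triclosan livers, 87.1 ± 5.51% in mixture livers and 86.3 ± 4.87% in unexposed livers (SD, n = 4 each). In fragments the rows were closer, with about 12224 for rxrg and 8409 for rxrb over all 16 libraries. FPKM divides by transcript length, and the lengths behind these shares were not examined. The second row, rxrb, ranged from 1.63 to 2.78 FPKM. It had an SD between replicates of 0.16 on the log2(FPKM + 1) scale, which 4.36% of tested genes undercut, with no matching for level. The row for rxra, the paralogue that is the main one in mammalian liver, averaged 0.127 FPKM, was listed at 0 in 2 libraries, rested on about 47 fragments over all 16 libraries and made up 0 to 2.23% of RXR FPKM.

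**Figure D2:**
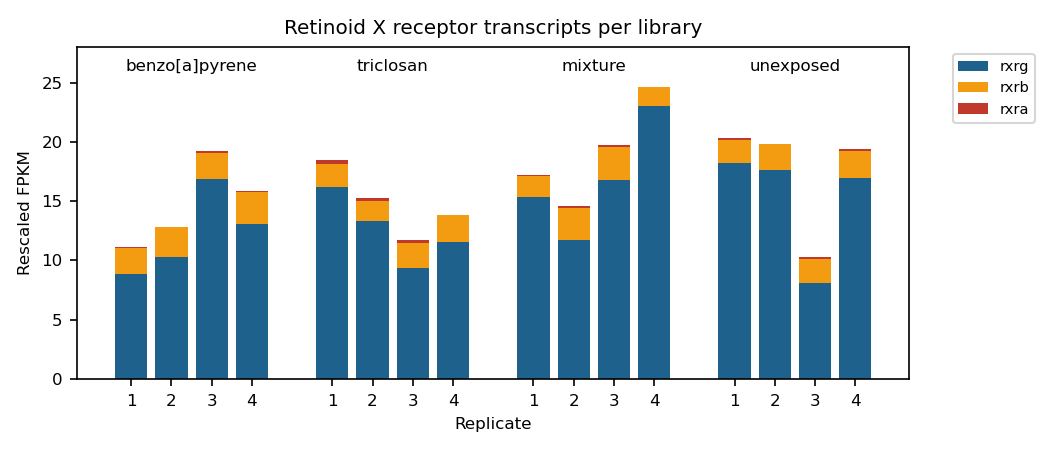
Rescaled FPKM of rxrg, rxrb and rxra stacked for each of the 16 libraries (replicates 1 to 4 of each group along the horizontal axis). The rxrg segment makes up 79.1 to 93.4% of every bar, rxra is barely visible, and bar heights run from 10.3 to 24.6 FPKM, with overlapping groups.

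Below this pair, 8 rows lay within 1.89 to 4.20 FPKM on average and their order was not fixed. The lowest rxrg value, 8.11 FPKM, stayed above the highest value of ppard, 5.58 FPKM, but every other pair of neighbours in the order of means overlapped. The third place in the set was held by ppard in 7 libraries, nr2c1 in 4, nr1h2 in 3 and hnf4b in 1. In benzo[a]pyrene replicate 4 that place was held by nr4a1. The order of means was ppard (4.20 FPKM), nr2c1 (3.62), nr1h2 (3.23), hnf4b (3.23), nr5a2 (2.30), rxrb (2.19), esrra (2.09), nr0b1 (1.89) and nr2f2 (0.835). Within groups, the 11 tested receptors had a median SD of 0.28 on the log2(FPKM + 1) scale, against 0.35 for all 6919 tested genes. Adding 1 lowers this SD for low rows, and the genes were not matched for level.

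No receptor passed the test in any comparison. Limma, fitted over all 16 libraries and adjusted over 6919 genes, called 0 of 11 receptors at an adjusted p below 0.05 in each of the 6 comparisons between groups. The share of all genes called was 0.0289% for benzo[a]pyrene against unexposed (2 genes), 0% for triclosan against unexposed, 0% for mixture against unexposed, 0.0723% for mixture against benzo[a]pyrene (5 genes), 0% for mixture against triclosan and 0.0867% for benzo[a]pyrene against triclosan (6 genes). At an unadjusted p below 0.05 the receptors numbered 2 of 11 for benzo[a]pyrene against unexposed, where 14.5% of all genes did so, and 1 of 11 for mixture against benzo[a]pyrene, where 13.1% did. The count was 0 of 11 for triclosan against unexposed, mixture against unexposed, mixture against triclosan and benzo[a]pyrene against triclosan, against 4.36%, 6.56%, 2.89% and 13.9% of all genes. The 95% intervals, which are not adjusted over genes, reached a median of 0.44 to either side of the estimate on the log2 scale. With 4 libraries a group, differences of that size or smaller could be missed for most receptors. Larger ones also went uncalled, such as 0.62 for nr1h5 between mixture and benzo[a]pyrene (limma adjusted p = 0.268). The smallest adjusted p among receptors over all comparisons and alternative settings was 0.17. The 3 exposure comparisons share the unexposed libraries and are given side by side.

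**Figure D3:**
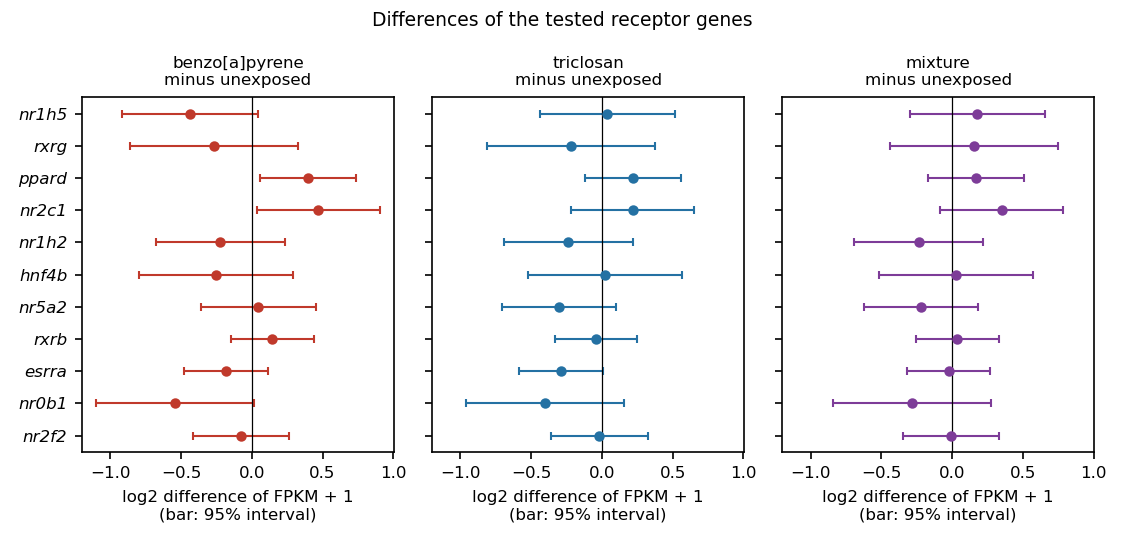
Log2 difference of FPKM + 1 between each exposure and unexposed livers for the 11 tested receptors (points, limma estimates; bars, 95% intervals; vertical line, no difference), with the receptors ordered by mean level. The intervals of ppard and nr2c1 lie to the right of 0 for benzo[a]pyrene, before adjustment over genes, and all other intervals reach or cross 0.

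Among the lipid and bile acid sensors, ppard, a fatty acid receptor that controls fat oxidation, stood highest in benzo[a]pyrene livers. It had 4.72, 4.31, 5.12 and 5.58 FPKM in benzo[a]pyrene livers, 3.65, 4.21, 3.84 and 5.31 FPKM in triclosan livers, 3.59, 3.52, 3.89 and 5.33 FPKM in mixture livers and 3.76, 3.82, 2.65 and 3.83 FPKM in unexposed livers. All 4 benzo[a]pyrene libraries lay above all 4 unexposed ones, while the triclosan and mixture libraries overlapped the unexposed range. The log2 difference was 0.40 for benzo[a]pyrene (SE 0.16, limma adjusted p = 0.286), 0.22 for triclosan (SE 0.16, adjusted p = 0.976) and 0.17 for the mixture (SE 0.16, adjusted p = 0.81). Leaving out any 1 library kept the benzo[a]pyrene difference between 0.30 and 0.45. The related fatty acid receptor ppara, the main one in mammalian liver, was much scarcer, between 0 and 1.13 FPKM, and was not tested. Its annotated locus was the shortest of the set, 2146 bp, and whether the row covers the whole gene was not tested. Its means were 0.246 ± 0.241 FPKM in benzo[a]pyrene livers, 0.285 ± 0.237 in triclosan livers, 0.584 ± 0.489 in mixture livers and 0.569 ± 0.375 in unexposed livers (SD, n = 4 each).

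For nr1h5 the log2 difference from unexposed was -0.44 in benzo[a]pyrene livers (SE 0.22, 95% interval -0.92 to 0.04, limma adjusted p = 0.371), 0.04 in triclosan livers (adjusted p = 0.998) and 0.18 in mixture livers (adjusted p = 0.852). The mixture against benzo[a]pyrene gave the largest difference of this receptor, 0.62 (SE 0.22, 95% interval 0.14 to 1.09, adjusted p = 0.268), and there the groups did not overlap: the lowest mixture library had 29.7 FPKM and the highest benzo[a]pyrene library 28.8 FPKM. It was 1 of 11 receptors with groups apart in that comparison, where 5.55% of all tested genes were, and 0 of 25 untested receptor-set rows were, against 3.05% of untested genes above 0. The oxysterol receptor nr1h2, liver X receptor beta, had 2.13, 4.07, 2.46 and 3.72 FPKM in benzo[a]pyrene livers, 2.70, 2.80, 2.71 and 3.76 FPKM in triclosan livers, 3.14, 3.79, 2.18 and 2.96 FPKM in mixture livers and 2.31, 5.43, 3.43 and 4.08 FPKM in unexposed livers. All 4 groups overlapped, and its log2 differences from unexposed were -0.22, -0.24 and -0.24 for benzo[a]pyrene, triclosan and mixture (limma adjusted p of 0.653, 0.986 and 0.804). The vitamin D receptor row vdr stayed at or below 0.235 FPKM in every library.

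Orphan receptors of the NR2 group included the second receptor below an unadjusted p of 0.05. The nr2c1 row, testicular receptor 2, had 3.35, 3.72, 5.50 and 4.59 FPKM in benzo[a]pyrene livers, 4.18, 3.12, 2.82 and 3.56 FPKM in triclosan livers, 3.12, 2.86, 3.91 and 5.88 FPKM in mixture livers and 2.82, 3.24, 1.88 and 3.35 FPKM in unexposed livers. The benzo[a]pyrene libraries reached higher, but the lowest of them touched the upper end of the unexposed range. Its log2 difference from unexposed was 0.47 for benzo[a]pyrene (SE 0.20, limma adjusted p = 0.319), 0.22 for triclosan (adjusted p = 0.986) and 0.35 for the mixture (adjusted p = 0.766). The row for hnf4b, an HNF4 paralogue described in frogs, ranged from 1.48 to 4.91 FPKM with both extremes among the mixture and unexposed livers. Its means were 2.61 ± 0.577 FPKM in benzo[a]pyrene livers, 3.38 ± 0.817 in triclosan livers, 3.45 ± 1.12 in mixture livers and 3.47 ± 1.43 in unexposed livers (SD, n = 4 each). The COUP-TFII row nr2f2, an orphan receptor of vessel and organ development, ranged from 0.507 to 1.24 FPKM and its log2 differences from unexposed were -0.08, -0.02 and -0.01 for benzo[a]pyrene, triclosan and mixture.

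The oestrogen-related receptor esrra, an orphan receptor that drives mitochondrial energy genes, lay within a narrow band in benzo[a]pyrene livers. It had 1.97, 1.97, 1.90 and 1.95 FPKM in benzo[a]pyrene livers, 1.37, 1.96, 2.13 and 1.55 FPKM in triclosan livers, 3.01, 2.65, 1.80 and 1.87 FPKM in mixture livers and 2.56, 2.29, 2.17 and 2.37 FPKM in unexposed livers. Every benzo[a]pyrene and every triclosan library was below every unexposed one, while the mixture libraries lay on either side. The log2 difference from unexposed was -0.18 for benzo[a]pyrene (SE 0.14, limma adjusted p = 0.545), -0.29 for triclosan (SE 0.14, adjusted p = 0.965) and -0.02 for the mixture (SE 0.14, adjusted p = 0.978). With ppard, it made 2 of 11 tested receptors whose benzo[a]pyrene and unexposed libraries did not overlap, against 7.75% of all tested genes. It was 1 of 11 for triclosan, against 2.79% of all tested genes, and for the mixture the count was 0 of 11, against 4.52%.

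Of the atypical receptors without a DNA-binding domain, nr0b1 (DAX1), which acts as a repressor of other receptors, was the more abundant. It had 2.63, 0.735, 0.841 and 1.71 FPKM in benzo[a]pyrene livers, 1.30, 0.938, 1.37 and 3.40 FPKM in triclosan livers, 1.75, 2.26, 1.76 and 1.62 FPKM in mixture livers and 2.60, 3.17, 2.60 and 1.62 FPKM in unexposed livers. Every group overlapped the unexposed range, and the replicates of the benzo[a]pyrene and triclosan groups were spread widely. The log2 difference was -0.54 for benzo[a]pyrene (SE 0.26, limma adjusted p = 0.353), -0.40 for triclosan (SE 0.26, adjusted p = 0.974) and -0.28 for the mixture (SE 0.26, adjusted p = 0.807). The row for nr0b2 (SHP), the bile acid induced repressor that is prominent in mammalian liver, was above 0 in only 3 libraries, at 0.103 FPKM in benzo[a]pyrene replicate 4, 0.0679 in triclosan replicate 1 and 0.158 in unexposed replicate 4. Its partner in bile acid control, nr5a2 (LRH-1), had 1.69, 2.59, 3.88 and 2.72 FPKM in benzo[a]pyrene livers, 1.88, 1.93, 1.52 and 2.09 FPKM in triclosan livers, 3.03, 1.59, 1.80 and 1.86 FPKM in mixture livers and 2.12, 2.01, 3.20 and 2.89 FPKM in unexposed livers. Triclosan libraries kept to the low end but overlapped the unexposed ones, and the log2 difference was 0.05 for benzo[a]pyrene (adjusted p = 0.937), -0.31 for triclosan (SE 0.19, adjusted p = 0.965) and -0.22 for the mixture (SE 0.19, adjusted p = 0.798).

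**Figure D4:**
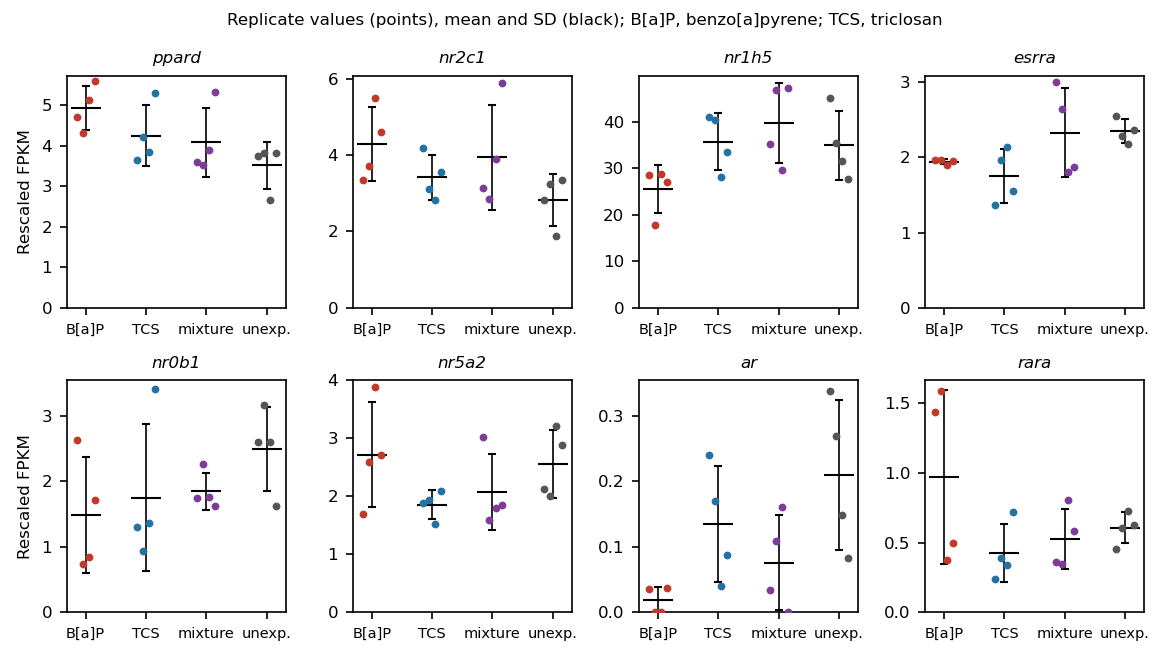
Rescaled FPKM of 8 receptor rows in the 4 groups (points, replicates; black line and bar, mean and SD, n = 4 each; each panel has its own axis from 0, where bars end). The benzo[a]pyrene points of ppard lie above and those of esrra and ar below all unexposed points, while nr2c1, nr1h5, nr0b1, nr5a2 and rara overlap.

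The steroid receptor rows matched by the rule, which does not take in esr1, stayed below 1 FPKM in every library of these female livers. The 5 rows nr3c1 (glucocorticoid receptor), esr2 (oestrogen receptor beta), ar (androgen receptor), nr3c2 (mineralocorticoid receptor) and pgr (progesterone receptor) together summed to 0.336 to 0.905 FPKM per library. Their means over 16 libraries were 0.254 FPKM for nr3c1, 0.162 for esr2, 0.110 for ar, 0.0917 for nr3c2 and 0.0439 for pgr, and none was tested. Over all 16 libraries nr3c1 rested on about 604 fragments, esr2 on 154 and nr3c2 on 137, against 44 for ar and 31 for pgr. The glucocorticoid receptor row averaged 0.317 ± 0.102 FPKM in benzo[a]pyrene livers, 0.245 ± 0.0448 in triclosan livers, 0.246 ± 0.104 in mixture livers and 0.207 ± 0.103 in unexposed livers (SD, n = 4 each).

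The androgen receptor row was the 1 untested receptor whose exposed and unexposed libraries did not overlap. It had 0.0353, 0, 0 and 0.0377 FPKM in benzo[a]pyrene livers, 0.240, 0.170, 0.0407 and 0.0880 FPKM in triclosan livers, 0.0346, 0.109, 0.160 and 0 FPKM in mixture livers and 0.337, 0.269, 0.149 and 0.0830 FPKM in unexposed livers. The benzo[a]pyrene libraries all lay below the unexposed ones, and the triclosan libraries overlapped the unexposed ones. The mixture libraries overlapped the benzo[a]pyrene and the unexposed ones. The benzo[a]pyrene and triclosan libraries did not overlap for ar, nor for the untested row nr4a1, and the share of all genes apart in that comparison was not counted. The approximate fragments behind these values numbered 2 in the 4 benzo[a]pyrene libraries together, 13 in triclosan, 10 in mixture and 19 in unexposed libraries. A lack of overlap with the unexposed libraries was found for 1 of 25 untested receptor-set rows with benzo[a]pyrene, against 2.68% of all untested genes above 0. It was found for 0 of 25 with triclosan and 0 of 25 with the mixture, against 1.79% and 1.89%. In a fit with no filter on low values the log2 difference of ar was -0.24 and its limma adjusted p was 0.29. That fit called 0 of the 36 receptor-set rows above 0 in any comparison. Of all 16451 genes in it, 1 was called for benzo[a]pyrene against unexposed, so a count of 0 is not particular to receptors.

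Retinoic acid receptors, which mediate vitamin A signalling, summed to 1.58 ± 0.553 FPKM in benzo[a]pyrene livers, 0.875 ± 0.443 in triclosan livers, 0.803 ± 0.254 in mixture livers and 0.997 ± 0.0751 in unexposed livers (SD, n = 4 each). The alpha gene, rara, had 1.44, 1.59, 0.374 and 0.501 FPKM in benzo[a]pyrene livers, 0.243, 0.393, 0.343 and 0.720 FPKM in triclosan livers, 0.365, 0.350, 0.803 and 0.586 FPKM in mixture livers and 0.459, 0.607, 0.728 and 0.631 FPKM in unexposed livers. Benzo[a]pyrene replicates 1 and 2 were the highest of the 16 and the other 2 benzo[a]pyrene replicates lay below or near the low end of the unexposed range, so the groups overlapped. The gamma and beta genes, rarg and rarb, averaged 0.293 and 0.139 FPKM. Among the ROR receptors, which bind DNA as monomers, rora was above 0 in 3 libraries, at 0.0467 FPKM in mixture replicate 4 and at 0.0213 and 0.0256 FPKM in unexposed replicates 1 and 2.

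The NR4A receptors, which are induced as immediate early genes and act without a known endogenous ligand, stood apart in 1 library. The nr4a1 row (Nur77) had 0.427, 0.545, 0.376 and 5.71 FPKM in benzo[a]pyrene livers, 0.0667, 0.209, 0.318 and 0.351 FPKM in triclosan livers, 0.310, 0.227, 0.341 and 0.799 FPKM in mixture livers and 0.0854, 0.208, 0.397 and 0.302 FPKM in unexposed livers. The row NR4A2 (Nurr1, ENSXETG00000031753) had 0.0870, 0.0190, 0.0440 and 0.759 FPKM in benzo[a]pyrene livers, 0.0207, 0.0157, 0.0326 and 0.0257 FPKM in triclosan livers, 0.00460, 0.0186, 0.0107 and 0.0582 FPKM in mixture livers and 0.0382, 0.00662, 0.0301 and 0.0118 FPKM in unexposed livers. In both rows benzo[a]pyrene replicate 4 was far above the other 15 libraries. Its value was 7.15 times the next highest for nr4a1 and 8.73 times for NR4A2, and it held 50.7% and 67.7% of the fragments of these rows over all 16 libraries. Without it the benzo[a]pyrene mean of nr4a1 was 0.450 ± 0.0870 FPKM (SD, n = 3), against 0.248 ± 0.133 FPKM in unexposed livers (SD, n = 4). A list of 20 immediate early genes was drawn up after this was seen: 17 of its rows were above 0, and 0 of the 17 had their highest value in that library. In that library 6 of the 17 lay above the median of the other libraries. The same counts were not made over all genes, so neither can be set against a background. From the highest value down, btg2 and klf2 stood 3rd, jund 4th and myc and zfp36 5th of the 16 libraries, and fos stood 13th and egr1 15th.

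**Figure D5:**
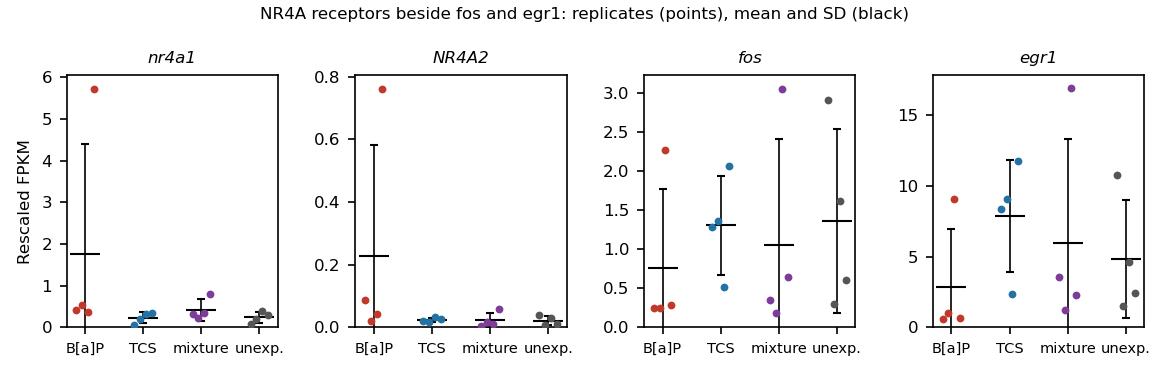
Rescaled FPKM of nr4a1, NR4A2 and the immediate early genes fos and egr1 in the 4 groups (points, replicates; black line and bar, mean and SD, n = 4 each, bars cut at 0; each panel has its own axis). Benzo[a]pyrene replicate 4 is the single high point in the panels of nr4a1 (5.71 FPKM) and NR4A2 (0.759 FPKM) and is among the low points for fos (0.288 FPKM) and egr1 (0.664 FPKM). These genes do not stand for the whole list of immediate early genes. In that library 6 of its 17 rows above 0 lay above the median of the other libraries.

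The remaining rows were low in all groups. They comprised hnf4g (mean 0.420 FPKM), nr2e3 (0.311), nr2f6 (0.190), nr2f1 (0.179), nr2c2 (0.0721) and nr2f5 (0.0572), all of the NR2 group, with nr2e1, which was above 0 in 1 library. The other rows were nr6a1 (germ cell nuclear factor), above 0 in replicate 4 of the benzo[a]pyrene, mixture and unexposed groups, and esrrgr, above 0 in 2 libraries. The associated protein row nr2c2ap averaged 0.789 ± 0.383 FPKM in benzo[a]pyrene livers, 0.416 ± 0.166 in triclosan livers, 0.478 ± 0.135 in mixture livers and 0.573 ± 0.284 in unexposed livers (SD, n = 4 each). The drug-sensing receptors nr1i2 (PXR) and NR1I3 (CAR) have symbols outside the rule. PXR ranged from 0.115 to 0.591 FPKM, and CAR averaged 4.05 ± 3.61 FPKM in benzo[a]pyrene livers, 2.80 ± 0.632 in triclosan livers, 4.90 ± 2.81 in mixture livers and 4.49 ± 1.27 in unexposed livers (SD, n = 4 each).

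Genes that work with the receptors were described by lists of cofactors, chaperones and targets, and limma called no member of any list in any comparison with unexposed livers. Of the 9 tested coactivators, 2 were higher and 2 lower in benzo[a]pyrene livers at an unadjusted p below 0.05, a level that 14.5% of all tested genes passed, with a median log2 difference of 0.15 against 0.00 over all tested genes. The genes named from these lists were picked by their small unadjusted limma p-values. The acetyltransferase gene crebbp averaged 3.35 ± 0.605 FPKM in benzo[a]pyrene livers, against 2.09 ± 0.385 FPKM in unexposed livers (SD, n = 4 each; limma adjusted p = 0.204). Its groups did not overlap, which held for 7.75% of all tested genes in that comparison. Because crebbp was picked by its small p-value, the lack of overlap adds no support. The arginine methyltransferase gene prmt1 averaged 1.80 ± 0.139 FPKM in triclosan livers, against 4.25 ± 2.46 FPKM in unexposed livers (adjusted p = 0.965). Of the 11 tested corepressors, 1 was higher in benzo[a]pyrene livers at that unadjusted level, against 14.5% of all tested genes in either direction. The count was 0 in triclosan livers, against 4.36% of all tested genes, and in mixture livers 1 was higher and 1 lower, against 6.56%. The repressor bcl6 averaged 4.19 ± 0.440 FPKM in mixture livers, against 1.83 ± 0.637 FPKM in unexposed livers (adjusted p = 0.731). Its groups did not overlap either, where 4.52% of all tested genes did not, and the same limit holds for this picked gene. The corepressor ctbp1 averaged 5.93 ± 1.77 FPKM in benzo[a]pyrene livers, against 3.36 ± 0.592 FPKM in unexposed livers (adjusted p = 0.196). Among 13 tested chaperones of steroid receptors, hsp90aa1.1 averaged 6.39 ± 2.08 FPKM in mixture livers, against 3.45 ± 1.63 FPKM in unexposed livers (adjusted p = 0.731), and the HSP90 activator ahsa1 averaged 0.866 ± 0.361 FPKM in benzo[a]pyrene livers, against 1.85 ± 1.08 FPKM in unexposed livers (adjusted p = 0.322).

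No target passed the limma threshold either, in any direction. In benzo[a]pyrene livers, 12 of 17 tested PPAR targets lay below unexposed (median log2 difference -0.31), as did 4 of 5 LXR targets (-0.41), 5 of 6 FXR and SHP targets (-0.40), 8 of 10 PXR and CAR targets (-0.31) and 8 of 10 retinoid genes (-0.31), against a median of 0.00 over all tested genes. Glucocorticoid receptor targets were split, with 11 of 18 above unexposed and a median of 0.06. The FXR and SHP list was not divided into induced and repressed genes, so its count and median give no direction of receptor activity. At an unadjusted p below 0.05 the benzo[a]pyrene counts were 1 lower among PPAR targets, 0 among LXR targets, 2 lower among FXR and SHP targets, 2 lower among PXR and CAR targets, 2 lower among retinoid genes, and 3 higher and 1 lower among glucocorticoid receptor targets, in a comparison where 14.5% of all genes passed that level. In triclosan livers the medians of these 6 lists ran from -0.26 to -0.03 and in mixture livers from -0.20 to 0.12. Counts below unexposed in triclosan livers were 12 of 17 PPAR, 5 of 5 LXR and 3 of 6 FXR and SHP targets. They were 6 of 10 PXR and CAR targets, 7 of 10 retinoid genes and 11 of 18 glucocorticoid receptor targets. For mixture livers the counts, in the same order, were 11 of 17, 4 of 5, 3 of 6, 7 of 10, 9 of 10 and 9 of 18. A lean below unexposed was thus not particular to benzo[a]pyrene livers. Of the tested hepatocyte markers, 15 of 16 were below unexposed in benzo[a]pyrene livers (median -0.57). The summed level of the hepatocyte rows was 8843 to 16146 FPKM in benzo[a]pyrene livers, against 10824 to 24105 FPKM in unexposed livers. Erythroid markers were above unexposed in 9 of 9 (median 0.97), with 12 rows summing to 934 to 2294 FPKM in benzo[a]pyrene livers, against 446 to 758 FPKM in unexposed livers, and 8 of 8 bile duct markers were below (median -0.62). The 10 lymphocyte rows summed to 2.06 to 5.44 FPKM in benzo[a]pyrene livers, against 1.39 to 2.71 FPKM in unexposed livers. In mixture livers 11 of 16 tested hepatocyte markers were below unexposed (median -0.34), as were 7 of 8 bile duct markers (median -0.54) and 4 of 4 macrophage markers (median -0.62), while 5 of 9 erythroid markers were above (median 0.17). The 7 macrophage rows summed to 37.8 to 62.5 FPKM in mixture livers, against 49.0 to 127 FPKM in unexposed livers. The part of these markers in the receptor and target values was not tested.

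The targets named next had the smallest unadjusted limma p-values of their lists over the comparisons with unexposed livers. They do not stand for their lists as a whole. The glucocorticoid-induced leucine zipper gene tsc22d3 averaged 146 ± 63.5 FPKM in benzo[a]pyrene livers, against 64.5 ± 11.0 FPKM in unexposed livers (SD, n = 4 each; limma adjusted p = 0.116), and nfkbia, the NF-kappaB inhibitor, averaged 46.5 ± 13.1 FPKM in benzo[a]pyrene livers, against 27.2 ± 4.01 FPKM in unexposed livers (adjusted p = 0.149). The retinol dehydrogenase rdh10 averaged 0.695 ± 0.275 FPKM in benzo[a]pyrene livers, against 1.22 ± 0.331 FPKM in unexposed livers (adjusted p = 0.275). The peroxisomal enzyme EHHADH averaged 18.5 ± 1.09 FPKM in benzo[a]pyrene livers, against 24.8 ± 2.87 FPKM in unexposed livers (adjusted p = 0.286), and the PPAR-induced secreted factor angptl4 averaged 5.52 ± 1.99 FPKM in triclosan livers, against 2.44 ± 1.33 FPKM in unexposed livers (adjusted p = 0.965). The conjugating enzyme ugt1a6 averaged 7.03 ± 1.50 FPKM in benzo[a]pyrene livers, against 10.9 ± 1.38 FPKM in unexposed livers (adjusted p = 0.18), and the epoxide hydrolase ephx1 averaged 18.1 ± 1.74 FPKM in benzo[a]pyrene livers, against 28.1 ± 6.37 FPKM in unexposed livers (adjusted p = 0.244). The bile salt export pump abcb11 averaged 2.57 ± 1.17 FPKM in mixture livers, against 1.03 ± 0.504 FPKM in unexposed livers (adjusted p = 0.731), and the bile acid transporter subunit slc51a averaged 2.57 ± 1.01 FPKM in benzo[a]pyrene livers, against 4.67 ± 2.03 FPKM in unexposed livers (adjusted p = 0.289). The LXR targets nearest the threshold were the phospholipid remodelling enzyme lpcat3, with 1.12 ± 0.259 FPKM in benzo[a]pyrene livers against 2.09 ± 0.813 FPKM in unexposed livers (adjusted p = 0.349), and the desaturase scd, with 2.27 ± 2.31 FPKM in mixture livers against 5.11 ± 4.67 FPKM in unexposed livers (adjusted p = 0.788).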

How the data were processed

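Total RNA was taken from 15 mg of liver per replicate, and stranded mRNA libraries were sequenced as 75 bp reads, per the labels' protocols. The authors deposited 1 table of FPKM per library with confidence limits and an estimate status, per the file headers. Cufflinks 0.0.7, TopHat2 0.6, TopHat, Bowtie 0.12.7 and Trimmomatic 0.32.1 are named in the submitters' processing notes, with no roles. No source used here gives the genome build or annotation. FPKM is normalised for length and depth but keeps no counts. Approximate fragment numbers were derived from the upper confidence limit taken as 2 Poisson SD (70.2% of those up to 30 were within 0.05 of a whole number), so they cover counting error only.

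FPKM values were divided by median-of-ratios factors over 3959 genes. Estimates with a status other than OK (54, of 10 genes, none a receptor) were treated as missing. Genes with at least 1 FPKM in at least 4 of 16 libraries and 3 estimates per group were tested (6919) with limma 3.58.1 (R 4.3.3, statmod 1.5.0; trend and robust options) on log2(FPKM + 1) with 4 group means, two-sided, with Benjamini-Hochberg adjustment over all tested genes and a threshold of 0.05. Log2 differences are on this scale and understate the change of low genes. The script was tested on simulated data. P-values set each difference between groups against the spread between libraries, pooled over the 4 groups and moderated across genes.

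The members and gene lists were chosen with earlier results of these data known. Named receptors were the 10 with the highest mean, the 5 smallest p-values per exposure, those whose libraries did not overlap with unexposed, and receptors relevant to the exposures; for each companion list the 2 smallest p-values were named, except 1 gene that is not reported here. The NR4A rows and nr2c2ap were described after their values were seen. Replicate numbers follow accession order and were not taken as pairs in the main fit. Alternatives were the pseudocount (0.1), 2 filters, 2 scalings, all estimates, 2-group fits, a replicate block, no trend or robust option, and libraries left out.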

Additional observations from a re-analysis of the deposited data

Results flagged for a closer look

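Within groups of 4 libraries, 56 combinations of receptor and group were screened for a library whose gap to its nearest neighbour exceeded 0.829 of the group's range, a limit that chance passes in about 1 of 20 groups, and 6 stood apart. Among the benzo[a]pyrene livers, replicate 4 was high for nr4a1 (5.71 FPKM) and for NR4A2 (0.759 FPKM), and replicate 2 was low for nr1h5 (17.9 FPKM). The NR4A rows were described after these values were seen, so their flags cannot be set against that rate. Among the triclosan livers, replicate 4 was high for nr1h2 (3.76 FPKM). Among the unexposed livers, replicate 3 was low for rxrg (8.11 FPKM) and for ppard (2.65 FPKM). Benzo[a]pyrene replicate 4 also held 3.45% ribosomal RNA, and its part in the NR4A values was not tested.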

How the results depend on the processing

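The number of receptors called was 0 in every comparison fitted under the 26 settings run. The 16 receptor differences tracked across settings kept their sign and stayed short of the threshold in all 280 alternative values. They were picked for small unadjusted p-values or groups apart, which favours a stable sign, so this gives no support. Some untracked differences from unexposed changed sign when 1 library was left out. Examples are rxrg in mixture livers (-0.10 to 0.30) and nr5a2 in benzo[a]pyrene livers (-0.09 to 0.19). The counts over all genes, which form the background, were less stable, and the cause was not tested. For benzo[a]pyrene against unexposed, 2 genes were called. This became 1 with no filter, and 0 with a pseudocount of 0.1, FPKM of at least 1 in all 16 libraries, no rescaling, upper quartile scaling, only the 2 groups compared, no trend or robust option, or without mixture replicate 4 and benzo[a]pyrene replicate 4. For mixture against benzo[a]pyrene, 5 genes were called. This became 3 with no rescaling, and 0 with the all-library filter, with only the 2 groups, or without those 2 libraries. For benzo[a]pyrene against triclosan, 6 genes were called. This became 3 with a pseudocount of 0.1, 25 with the all-library filter, 2 with no rescaling, 1 with only the 2 groups, 17 with no trend or robust option and 0 without those 2 libraries. With only the 2 groups compared, mixture against unexposed and mixture against triclosan each gained 1 gene, from 0. Leaving out 1 library at a time gave 0 to 46 genes for benzo[a]pyrene against unexposed, 0 to 28 for mixture against benzo[a]pyrene and 0 to 59 for benzo[a]pyrene against triclosan; each maximum came without benzo[a]pyrene replicate 3. With the replicate number as a block, 0 genes were called in each comparison. No pairing of the libraries by number was evident: 6 of 24 correlations between same-numbered libraries exceeded 0.1, and 4 of 16 libraries correlated best with their own number. Such correlations cannot exclude a weak pairing. Depth limits the scarce receptors most, since ar, rxra, pgr and nr0b2 rest on about 44, 47, 31 and 6 fragments in all.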
